A study of Mus musculus with 19 samples.

Results

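The motile cilia axoneme genes described here were 39 genes sought by symbol, and 35 of them were among the 18639 gene symbols measured. They were taken by symbol from a list of axoneme genes. Dnah3, Dnah12, Dnai1 and Dnai2 were not analysed here under those symbols. Dnaic1 and Dnaic2, the older names of the outer arm intermediate chain genes, are described among the other axoneme genes. RNA sequencing covered 19 libraries from mouse inner ear, each from a tissue isolate of 1 mouse. All mice carried 1 GFP knock-in allele at CX3CR1 (CX3CR1 GFP/+), a receptor gene of macrophages, so no library came from mice without that allele. Cells were sorted into GFP-positive libraries, labelled macrophage, and GFP-negative libraries, labelled nonmacrophage. Young mice were 1.5 months and old mice 12 to 14 months of age. Whole cochlea gave 4 old nonmacrophage, 4 young nonmacrophage, 4 old macrophage and 2 young macrophage libraries and 1 young library that was labelled unsorted. Auditory nerve and lateral wall, the fluid-regulating outer wall of the cochlea, each gave 1 macrophage and 1 nonmacrophage library from young mice.

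A motile cilium beats because dynein motors, anchored in rows on its outer doublet microtubules, slide those doublets past each other. Radial spokes and a central pair of microtubules pace the motors, ruler proteins and the nexin-dynein regulatory complex space them, and assembly factors fold them in the cytoplasm. FOXJ1 and the RFX family are transcription factors of the motile cilium programme, and MCIDAS drives the formation of many cilia in a single cell. In the ear, motile cilia are known from the middle ear lining, and sensory hair cells carry a kinocilium, which vestibular hair cells keep and mature cochlear hair cells lose.

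Promoter sequences are shown because RFX proteins bind the X-box, 2 mirrored arms, in promoters of cilium genes. RefSeq promoters (GRCm38.p6, 250 bases before to 50 after the start) were matched for 29 of the 35 members, with 34 promoters in all. Both strands were searched for 3 motifs. The X-box was searched strictly, with any base N, as GTTNCCGGNAAC or with up to 3 more bases between its arms. In that form it was in the promoters of 0 of 29 members and of 0.969% of the 14137 genes found in both tables. Looser arms were not searched, such as the gttgct shortly before GGCAAC in the Hydin and Cfap44 promoters printed below. A single arm, GTTGCC or its reverse complement GGCAAC, was searched as the alternative to the full motif. It was in promoters of 13 of 29 members (44.8%), against 14.8% of those 14137 genes. The forkhead core TGTTTAC, or GTAAACA on the other strand, was in 1 of 29 (3.45%), against 3.26%. Each full X-box pattern can overlap a single arm where its free base fits. These are matches of letters, described without a test.

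Of the 14 members called higher in old than in young nonmacrophages below, 13 had a promoter and 5 of these held a single arm. In Spag6l it lay after the start. For the other 4, the 120 bases before the RefSeq start are printed from 5′ to 3′ on the gene's strand. Only GTTGCC and GGCAAC are in capitals. They lay at chr5:30281273-30281392 (plus strand) for Drc1, chr8:110266857-110266976 (plus) for Hydin, chr11:72361883-72362002 (minus) for Tekt1 and chr16:44394679-44394798 (plus) for Cfap44.
Drc1: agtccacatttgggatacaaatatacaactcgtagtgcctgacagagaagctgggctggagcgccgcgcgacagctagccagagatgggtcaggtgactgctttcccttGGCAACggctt
Hydin: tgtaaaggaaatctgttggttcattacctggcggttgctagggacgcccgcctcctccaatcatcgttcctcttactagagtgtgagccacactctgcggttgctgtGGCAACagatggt
Tekt1: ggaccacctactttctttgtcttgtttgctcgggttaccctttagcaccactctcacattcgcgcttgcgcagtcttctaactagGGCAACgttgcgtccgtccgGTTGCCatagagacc
Cfap44: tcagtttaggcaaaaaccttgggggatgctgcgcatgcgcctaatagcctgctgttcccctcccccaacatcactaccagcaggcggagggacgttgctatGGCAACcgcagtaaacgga
Between the printed arm and the start lay 5 bases in Drc1, 7 in Hydin and 13 in Cfap44. Cfap44 had another arm 123 bases before the start, outside the printed bases. Tekt1 had 2 arms, 29 and 9 bases before the start, on opposite strands. A second RefSeq promoter of Tekt1 held no arm.

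Old libraries held 50.59 to 71.56 M reads (M, mega). Young libraries of whole cochlea and its parts held 20.63 to 35.13 M, except young nonmacrophage replicate 14 with 60.23 M, so depth and age nearly coincided. Values are normalized reads, which are reads divided by a factor for each library. The 8 macrophage markers were all called higher in macrophages than in nonmacrophages at both ages, and so were 9 of the 10 neuron markers, although the label names macrophages only. Exons of 16 of the 35 members overlap those of another gene, among them Dnah11 with Cdca7l, Dnaaf1 with Taf1c and Ccdc39 with Ttc14, and no source used here states a strand-specific count, so reads from such pairs cannot be told apart. Spag6l has a near-identical copy, Spag6, so its value is uncertain.

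More axoneme genes reached 10 normalized reads in old nonmacrophages and in the unsorted young library than in any other library, and most were without reads in young macrophages. At least 10 normalized reads were seen for 30, 30, 31 and 27 of 35 members in old nonmacrophage replicates 10, 11, 18 and 19. Young nonmacrophage replicates 2, 5, 6 and 14 had 2, 7, 9 and 17. Old macrophage replicates 1, 7, 12 and 17 had 25, 14, 19 and 21, and young macrophage replicates 9 and 15 had 2 and 3. The old and young counts did not overlap in nonmacrophages or in macrophages, but neither did the number of all genes with reads. That number was 17662 to 17708 in old and 14399 to 17200 in young nonmacrophages. In macrophages it was 16750 to 17282 in old libraries and 11652 and 13532 in young ones. The members' summed level without Rsph9 was 1391 to 5122 normalized reads in old nonmacrophages, with replicate 19 lowest and below the 1565 of auditory nerve nonmacrophages. The unsorted library had 31, auditory nerve nonmacrophages 22, lateral wall nonmacrophages 15, auditory nerve macrophages 5 and lateral wall macrophages 6. In bulk RNA, fewer cells of a type and less RNA per cell cannot be told apart.

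**Figure D1:**
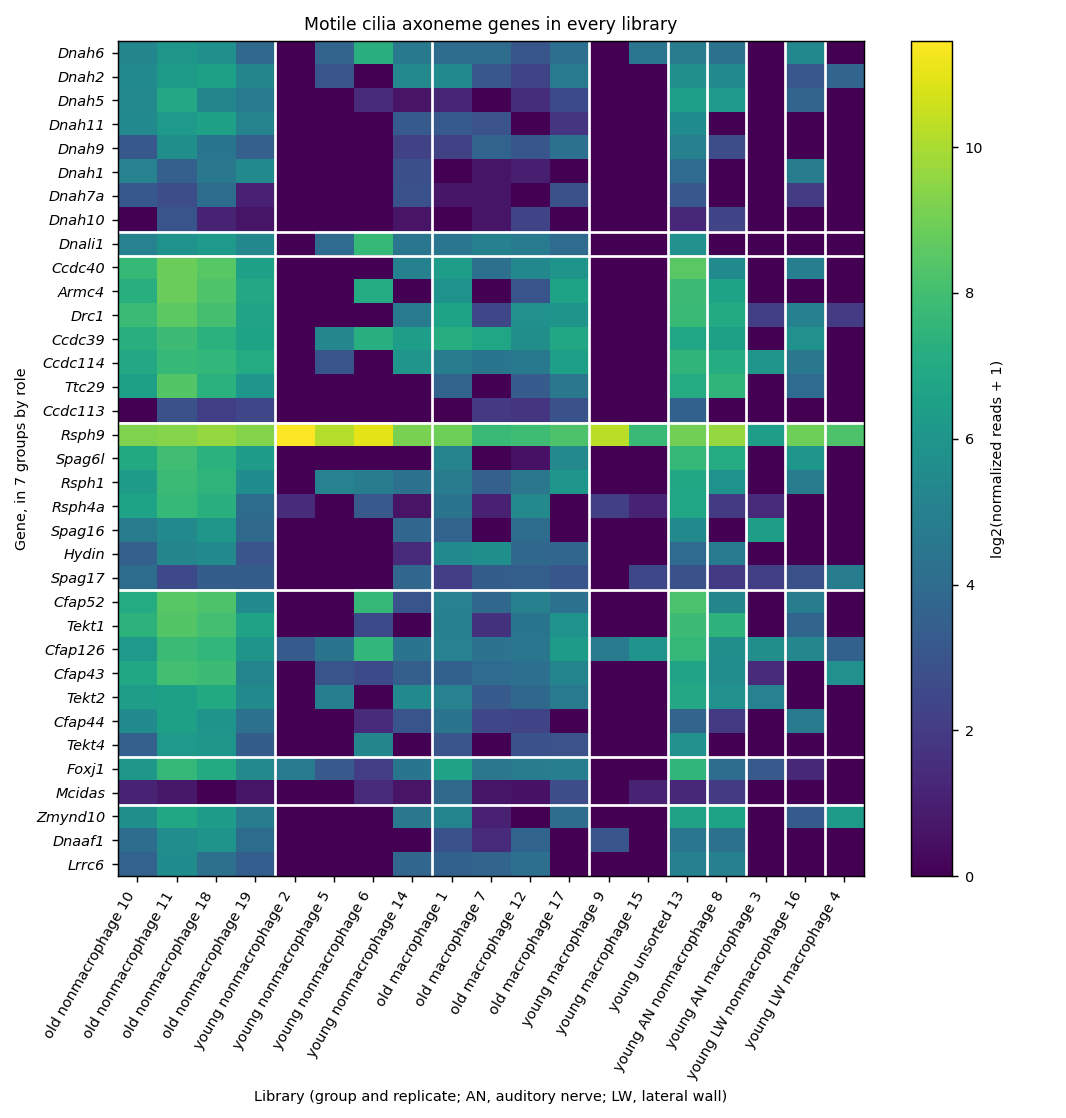
Colour gives log2(normalized reads + 1) of the 35 measured axoneme genes, in 7 role groups split by horizontal lines, in each of the 19 libraries. At least 10 normalized reads were reached by 27 to 31 members in the old nonmacrophage libraries and by 31 in the unsorted library, against 2 and 3 in the young macrophage libraries.

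Members were high and low in the same old nonmacrophage libraries. Replicate 11 had the highest level of the 4 for 23 of 35 members, against 28.7% of all genes tested, and replicate 19 the lowest for 26 of 35, against 25.7%. These libraries were singled out after their values were seen. The mean log2(normalized reads + 1) over the members was 5.33, 6.39, 6.12 and 4.79 in replicates 10, 11, 18 and 19. Across the 19 libraries, Pearson's r between a member and the mean of the others was at least 0.5 for 32 of 35, from 0.01 for Rsph9 to 0.95 for Ccdc40. This is a description over libraries that share depth, age and sort differences.

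Among GFP-negative cells, 14 of 35 axoneme genes were called higher in old mice and 21 were not called. Of these 14, only 7 had no exon overlap with another gene: Spag6l, Ttc29, Dnah5, Tekt1, Cfap44, Drc1 and Ccdc40. Spag6l has the near-identical copy named above. In old against young nonmacrophages the 14 were called (limma on log2(normalized reads + 1), adjusted p under 0.05 over 18441 genes), where 1.64% of all genes were called higher, and 0 were called lower, where 0.0813% were. At an unadjusted p under 0.05, 28 members were higher and 0 lower. The median log2 difference of the members was 3.94, beside 0.39 for all genes tested. Every old library lay above every young one for 19 of 35 members, against 12.0% of all genes. The call depends on the tool: edgeR's quasi-likelihood test on recovered reads called 0 of 32 members, where it called 3 genes in all (0.0175%), with 17 members higher and 1 lower at an unadjusted p under 0.05, while DESeq2 called 15 of 34 higher, where 3.02% of all genes were, and 0 lower, where 6.56% were. Over all genes limma called 303 higher and 15 lower, and DESeq2 521 higher and 1132 lower. Quantile normalization gave 6 higher, where 0.412% of all genes were. A fit without young nonmacrophage replicate 14 called 23, where 12.3% of all genes were, and a fit without old nonmacrophage replicate 11 called 9, where 0.904% were.

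The deeply sequenced young replicate 14 gives a comparison at like depth, but it is 1 library, so the spread among young mice at that depth is not known. Every old nonmacrophage library, at 51.15 to 64.40 M reads, lay above replicate 14 for 26 of 35 members, against 29.7% of all genes. The 26 include Rsph9, at 598 normalized reads in old replicate 10 and 562 in young replicate 14, although it leaned lower in old nonmacrophages. A count of 0 allows up to 3 reads, which is 1.60 normalized reads in replicate 14 and up to 5.33 in the shallower young nonmacrophage libraries.

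**Figure D2:**
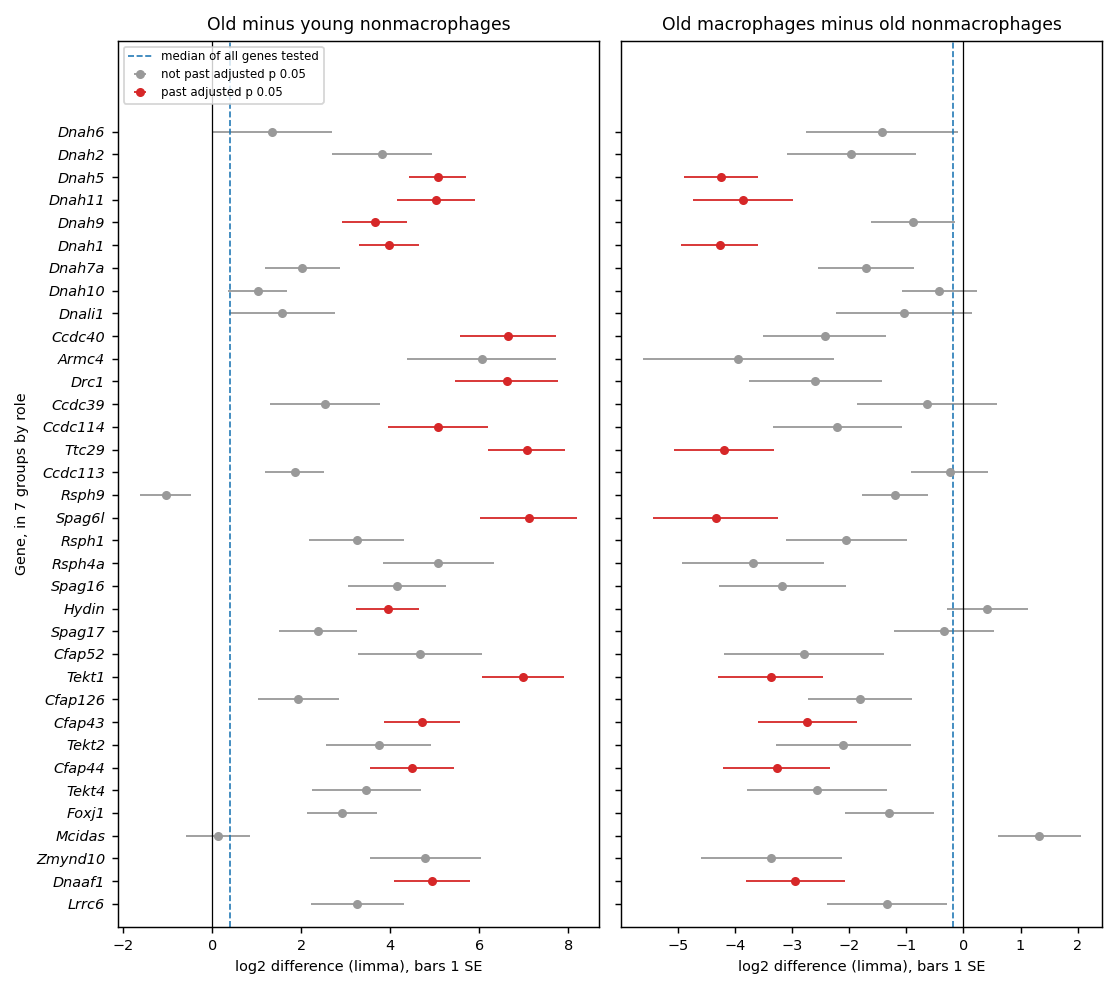
Points give the limma log2 difference of each member and bars 1 SE, for old minus young nonmacrophages on the left and old macrophages minus old nonmacrophages on the right. Red points passed an adjusted p of 0.05, 14 on the left and 9 on the right, and the dashed line is the median of all genes tested.

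Below, values are normalized reads in the order of replicates 10, 11, 18 and 19 for old nonmacrophages, 2, 5, 6 and 14 for young nonmacrophages, 1, 7, 12 and 17 for old macrophages and 9 and 15 for young macrophages, and tests are limma's with Benjamini-Hochberg adjustment. Dynein heavy chains are the motor subunits. Dnah5, an outer arm motor (chr15:28203752-28472052 in mm10, plus strand), had 41.2, 119, 37.3 and 24.7 normalized reads in old and 0, 0, 1.63 and 0.535 in young nonmacrophages (log2 difference 5.06 ± 0.65 SE, adjusted p = 0.0018). Dnah11, another outer arm motor, had 44.3, 73.0, 92.9 and 33.5 in old and 0, 0, 0 and 8.56 in young nonmacrophages (log2 difference 5.03 ± 0.87 SE, adjusted p = 0.011). In both genes all 4 old libraries lay above all 4 young ones. Dnah9, an outer arm motor, had 8.00, 50.9, 21.1 and 10.4 in old and 0, 0, 0 and 3.74 in young nonmacrophages (log2 difference 3.65 ± 0.73 SE, adjusted p = 0.023). Dnah1, an inner arm motor, had 33.2, 10.3, 22.8 and 43.9 in old and 0, 0, 0 and 5.88 in young nonmacrophages (log2 difference 3.97 ± 0.68 SE, adjusted p = 0.0097). It was unlike most members in that replicate 19 was its highest old library and replicate 11 its lowest. Dnah2, an inner arm motor, had 45.5, 75.7, 90.6 and 37.9 in old and 0, 6.81, 0 and 40.6 in young nonmacrophages and was not called (log2 difference 3.81 ± 1.13 SE, adjusted p = 0.094). Dnah6, also of the inner arm, had 36.9, 66.8, 52.8 and 14.3 in old and 0, 12.3, 148 and 24.1 in young nonmacrophages, with the highest level of all in young replicate 6, and was not called (log2 difference 1.35 ± 1.33 SE, adjusted p = 0.57). Dnah7a and Dnah10 were low, with means over the 19 libraries of 2.87 and 1.03 normalized reads. Dnali1, an inner arm light chain, had 32.6, 56.4, 71.2 and 40.0 in old and 0, 15.0, 202 and 21.4 in young nonmacrophages, with the groups overlapping because of young replicate 6 (log2 difference 1.57 ± 1.19 SE, adjusted p = 0.44).

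Docking, ruler and nexin-dynein regulatory proteins place the motors on the doublets. Ttc29, an axonemal dynein component (chr8:78213297-78394326, plus strand), had 91.6, 332, 158 and 63.6 normalized reads in old nonmacrophages and no reads in any of the 4 young ones (log2 difference 7.06 ± 0.87 SE, adjusted p = 0.0015). Against 3 reads per young library its mean was at least 40.6-fold higher. Ccdc40, which with Ccdc39 forms the ruler along the doublet (chr11:119228572-119265238, plus strand), had 201, 471, 358 and 94.4 in old and 0, 0, 0 and 32.1 in young nonmacrophages (log2 difference 6.64 ± 1.08 SE, adjusted p = 0.0074). Reads of Ccdc40 among young nonmacrophages came from replicate 14 alone. Ccdc39 itself had 144, 232, 156 and 98.8 in old and 0, 38.1, 147 and 81.3 in young nonmacrophages, which overlap (log2 difference 2.53 ± 1.23 SE, adjusted p = 0.23). Drc1, a core protein of the nexin-dynein regulatory complex whose promoter is shown above (chr5:30281388-30366695, plus strand), had 227, 376, 268 and 102 in old and 0, 0, 0 and 25.1 in young nonmacrophages (log2 difference 6.61 ± 1.16 SE, adjusted p = 0.011). Ccdc114, of the outer arm docking complex, had 119, 204, 189 and 131 in old and 0, 6.81, 0 and 61.5 in young nonmacrophages (log2 difference 5.07 ± 1.13 SE, adjusted p = 0.042). For Drc1 and Ccdc114 the lowest old library was above the highest young one. Armc4, also of the docking complex, had 147, 453, 314 and 121 in old and 0, 0, 132 and 0 in young nonmacrophages and was not called (log2 difference 6.05 ± 1.67 SE, adjusted p = 0.082). Ccdc113 had at most 10.7 normalized reads in any library (log2 difference 1.85 ± 0.67 SE, adjusted p = 0.14).

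Radial spoke and central pair proteins gave 2 of 7 members called higher, and 1, Rsph9, that leaned lower without a call. Spag6l, a central pair protein (chr16:16753016-16829456, minus strand), had 122, 244, 156 and 76.8 normalized reads in old and none in young nonmacrophages (log2 difference 7.11 ± 1.09 SE, adjusted p = 0.005), at least 37.6-fold higher against 3 reads per young library. Its copy Spag6 had 5.54, 0, 0.556 and 0 in old nonmacrophages. Hydin, a central pair protein, had 10.5, 35.8, 41.7 and 7.13 in old and 0, 0, 0 and 1.60 in young nonmacrophages (log2 difference 3.94 ± 0.71 SE, adjusted p = 0.013). Rsph1, a radial spoke head protein, had 76.9, 226, 176 and 46.1 in old and 0, 32.7, 27.7 and 18.2 in young nonmacrophages, and although these did not overlap it was not called (log2 difference 3.24 ± 1.06 SE, adjusted p = 0.11). Rsph9, also of the spoke head, ran apart from the other members: it had 598, 674, 794 and 645 in old and 2814, 1178, 2062 and 562 in young nonmacrophages, highest in young replicates 2 and 6 (log2 difference -1.05 ± 0.58 SE, adjusted p = 0.28). Rsph4a, another spoke head protein, was not called (log2 difference 5.08 ± 1.24 SE, adjusted p = 0.058). The central pair proteins Spag16 (log2 difference 4.15 ± 1.11 SE, adjusted p = 0.076) and Spag17 (log2 difference 2.38 ± 0.88 SE, adjusted p = 0.14) were not called either. Per kilobase of exon Rsph9 was also the most abundant member, at 423 ± 52.0 (SD, n = 4) normalized reads per kb in old nonmacrophages, against 133 ± 63.8 (SD, n = 4) for Tekt1 and 95.8 ± 61.4 (SD, n = 4) for Rsph1.

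Doublet microtubule proteins and cilia-associated proteins gave 3 of 7 members called higher. Tekt1, a tektin filament protein inside the doublet (chr11:72344722-72362442, minus strand), had 171, 335, 259.7 and 97.7 normalized reads in old and 0, 0, 4.89 and 0 in young nonmacrophages (log2 difference 6.98 ± 0.92 SE, adjusted p = 0.002). Cfap43 had 114, 253, 233 and 34.6 in old and 0, 6.81, 4.89 and 10.2 in young nonmacrophages (log2 difference 4.71 ± 0.86 SE, adjusted p = 0.014). Cfap44, which works with Cfap43 to tether inner arm motors, had 45.5, 90.8, 60.6 and 18.6 in old and 0, 0, 1.63 and 6.95 in young nonmacrophages (log2 difference 4.48 ± 0.94 SE, adjusted p = 0.032). In these 3 genes the old and young libraries did not overlap, and replicate 11 was the highest. Cfap52 had 132, 356, 301 and 45.0 in old and 0, 0, 196 and 6.95 in young nonmacrophages and was not called (log2 difference 4.67 ± 1.40 SE, adjusted p = 0.097). Cfap126 had 70.1, 220.2, 191 and 59.3 in old and 8.89, 20.4, 189 and 20.3 in young nonmacrophages and was not called (log2 difference 1.93 ± 0.91 SE, adjusted p = 0.22). In both genes young replicate 6 reached the range of the old libraries. The tektins Tekt2 (log2 difference 3.74 ± 1.18 SE, adjusted p = 0.1) and Tekt4 (log2 difference 3.46 ± 1.22 SE, adjusted p = 0.13) were not called.

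Assembly factors fold and load dynein arms. Dnaaf1 had 16.6, 48.9, 60.6 and 15.4 normalized reads in old and none in young nonmacrophages (log2 difference 4.94 ± 0.86 SE, adjusted p = 0.011), at least 8.88-fold higher against 3 reads per young library. Zmynd10 had 51.0, 116, 80.1 and 27.4 in old and 0, 0, 0 and 23.0 in young nonmacrophages (log2 difference 4.79 ± 1.24 SE, adjusted p = 0.073). Lrrc6 had 11.1, 46.8, 17.8 and 9.88 in old and 0, 0, 0 and 12.8 in young nonmacrophages (log2 difference 3.26 ± 1.05 SE, adjusted p = 0.11). For both of the latter, reads in young nonmacrophages came from replicate 14 alone, and neither was called. Of the regulators, Foxj1 (chr11:116330704-116335399, minus strand) had 65.2, 195, 128 and 40.6 in old and 24.9, 8.17, 3.26 and 20.9 in young nonmacrophages, without overlap and without a call (log2 difference 2.91 ± 0.78 SE, adjusted p = 0.077). Mcidas had 1.23, 0.688, 0 and 0.549 in old and 0, 0, 1.63 and 0.535 in young nonmacrophages, which is 2 reads or fewer per library, and its highest level anywhere was 14.8 in old macrophage replicate 1.

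**Figure D3:**
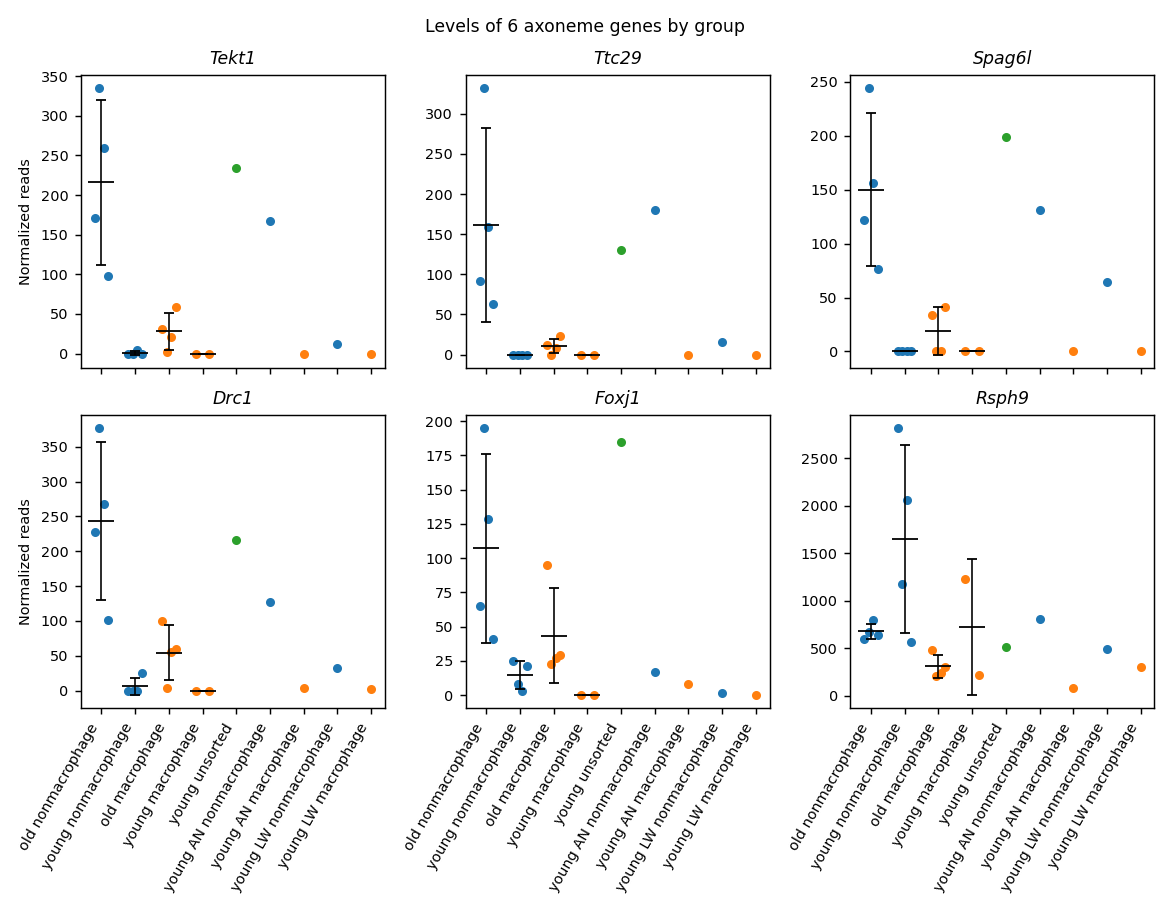
Points are libraries, in normalized reads, for 6 members in the 9 groups, with the mean and SD as black bars where a group has more than 1 library. Tekt1, Ttc29, Spag6l, Drc1 and Foxj1 were higher in all 4 old than in all 4 young nonmacrophage libraries, whereas Rsph9 was highest in young nonmacrophages, up to 2814.

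The remaining genes of the pathway came from separate lists. Of 69 other motile axoneme genes, 10 were called higher and 0 lower in old than in young nonmacrophages, with a median log2 difference of 1.90. Of all genes, 1.64% were called higher and 0.0813% lower. Cfap206, a radial spoke protein, had 88.6, 333, 225 and 89.4 normalized reads in old and 0, 0, 0 and 4.81 in young nonmacrophages (log2 difference 6.66 ± 0.76 SE, adjusted p = 0.00086). Dnaic1 had 70.7, 68.1, 70.6 and 37.9 and 0, 128, 0 and 28.3 (log2 difference 2.96 ± 1.75 SE, adjusted p = 0.32), and Dnaic2 had 219, 323, 304 and 124 and 96.0, 88.5, 166 and 59.4 (log2 difference 1.24 ± 0.99 SE, adjusted p = 0.47), so neither was called. Of 12 multiciliation regulators measured, 1 was called higher, Rfx4, and Gmnc was not analysed here. Rfx2 had 163, 154, 256 and 175 in old and 814, 192, 111 and 196 in young nonmacrophages, and Rfx3 had 164, 163, 156 and 165 and 345, 436, 801 and 241. Ccno, which acts in centriole multiplication, had 19.7, 32.4, 25.6 and 24.7 in old nonmacrophages and reads in young nonmacrophages only from replicate 14, at 46.5. Intraflagellar transport and BBSome genes, which primary cilia also use, were called in 0 of 32 cases in either direction, with a median of 0.43 and, at an unadjusted p under 0.05, 5 higher and 2 lower.

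Hair cell markers were also called. Of 16 hair cell markers 8 were called higher in old than in young nonmacrophages, where 1.64% of all genes were, and 0 lower, where 0.0813% were. Their median log2 difference was 5.09. Their summed level lay between 2814 and 9680 normalized reads in old nonmacrophages and between 481.8 and 1171 in young ones. Otof, the calcium sensor of hair cell synapses, had 1212, 2580, 1360 and 321 in old and 0, 0, 73.4 and 62.6 in young nonmacrophages (log2 difference 7.03 ± 1.59 SE, adjusted p = 0.044). Pou4f3, a hair cell transcription factor, had 58.4, 171, 111 and 32.4 in old nonmacrophages and no reads in the young ones (log2 difference 6.30 ± 0.85 SE, adjusted p = 0.0021). Like the members, the hair cell markers were highest in old replicate 11 (12 of 16, against 28.7% of all genes). They were lowest in replicate 19 (13 of 16, against 25.7%). In auditory nerve and lateral wall macrophages the hair cell markers summed to 5876 and 4230 normalized reads. The members summed to 333.7 and 485.5 there, so the lists did not run together in every library. Every old nonmacrophage library lay above every young one for 11 of 16 hair cell markers, against 12.0% of all genes. All lay above young replicate 14 for 15 of 16 hair cell markers, against 29.7% of all genes. The part of the hair cell markers in the axoneme result was not tested.

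**Figure D4:**
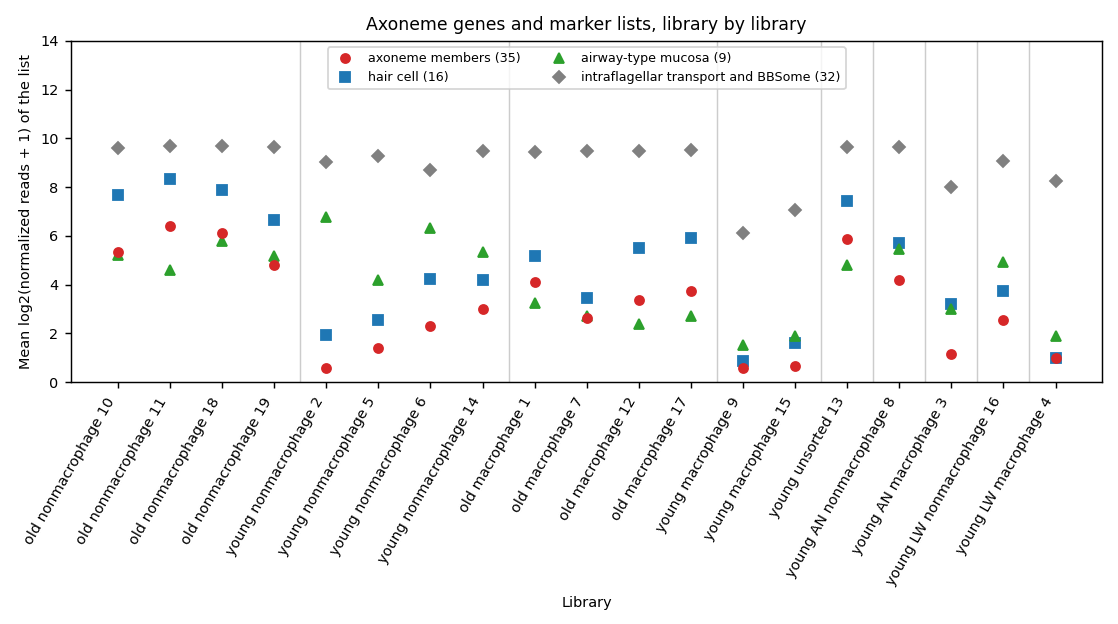
Each point is the mean log2(normalized reads + 1) of a list in 1 of the 19 libraries, for the 35 axoneme genes, 16 hair cell markers, 9 measured airway-type mucosa markers and 32 intraflagellar transport and BBSome genes. The axoneme mean was 4.79 to 6.39 in old and 0.60 to 2.99 in young nonmacrophages, and 5.87 in the unsorted library.

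Otol1, which encodes an otolith protein of the vestibular organs, had 546, 1553, 776 and 376 normalized reads in old and 103, 4.09, 186 and 58.3 in young nonmacrophages and was not called (log2 difference 3.84 ± 1.19 SE, adjusted p = 0.1). Over the 3 vestibular and otolith markers the summed level was 403.3 to 1619 in old and 92.61 to 186 in young nonmacrophages, and 0 of 3 were called in either direction, with 2 higher at an unadjusted p under 0.05. Slc26a5, the motor protein of cochlear outer hair cells, had 346, 92.2, 202 and 140.5 in old and 0, 0, 0 and 11.2 in young nonmacrophages (log2 difference 6.54 ± 1.02 SE, adjusted p = 0.0056), and no reads in the unsorted library. Of the airway-type mucosa markers, 0 of 8 tested were called in either direction by limma, 0 at an unadjusted p under 0.05, with a median of -0.68 and a summed level of 7115 to 10754 in old and 6275 to 21268 in young nonmacrophages. Bpifb1 and Scgb1a1, singled out after their values were seen, were low: Bpifb1 was without reads in all 4 old nonmacrophage libraries and Scgb1a1 had 1.23, 0, 1.11 and 1.10. Epcam, the most abundant of them, had 7994, 5802, 7293 and 6609 in old and 4521, 4947, 3865 and 7288 in young nonmacrophages. Ltf had 679.6, 17.9, 2225 and 219.5 in old and 542, 0, 3118 and 1551 in young nonmacrophages, and Cyp2f2 had 506, 888, 877 and 843 and 1341, 727, 12372 and 270.1. Of 10 other genes of ciliated cells measured, 8 were tested and 0 were called in either direction by limma, with 6 of 8 above 0, a median log2 difference of 2.25, and 2 higher and 1 lower at an unadjusted p under 0.05. Their summed level was 2083 to 3270 in old and 2328 to 9377 in young nonmacrophages. Tppp3, the most abundant of these, had 1621, 2313, 2132 and 2821 in old and 7137, 7277, 8696 and 2255 in young nonmacrophages (log2 difference -1.37 ± 0.50 SE, adjusted p = 0.14). The next were 1110017D15Rik, at 152, 382, 288 and 117 and 171, 2.72, 268 and 4.81, and Mlf1, at 176, 339, 309.7 and 116 and 1.78, 66.7, 207 and 11.8. Singled out after their values were seen, as low members of that list, were Tmem212 at 0, 0, 15.0 and 0, Sntn at 0, 0, 10.6 and 0 and Ccdc153 at 0, 0, 10.6 and 0.549 in old nonmacrophages, where replicate 18 held nearly all reads. Of 11 choroid plexus markers 0 were called higher and 1 lower, and of 9 supporting cell markers 1 was called higher, Tecta. Of all genes, 1.64% were called higher and 0.0813% lower in this comparison of old with young nonmacrophages.

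In GFP-positive cells 13 of 35 members were called higher with age and 22 were not, and many other genes were called higher too. In old against young macrophages 13 of 35 were called higher, where 24.1% of all genes were, and 0 lower, where 5.57% were. The members' median log2 difference was 2.77, and that of all genes 0.88, so all genes leaned towards the old libraries. Every old library lay above both young ones for 14 of 35 members, against 31.7% of all genes, which is near that background. Ccdc39 had 142, 106, 50.2 and 114 normalized reads in old macrophages and none in the young ones (log2 difference 6.60 ± 1.50 SE, adjusted p = 0.006), at least 23.8-fold higher against 3 reads per library. Foxj1 had 94.9, 22.3, 27.2 and 29.3 in old and none in young macrophages (log2 difference 5.22 ± 0.96 SE, adjusted p = 0.0015). Drc1 had 100.1, 4.35, 54.8 and 59.1 in old and none in young macrophages (log2 difference 5.20 ± 1.42 SE, adjusted p = 0.016). In these 3 genes every old macrophage library lay above both young ones. Of the 13, 7 were also called higher in old nonmacrophages, and 6 (Ccdc39, Dnah2, Dnali1, Foxj1, Rsph1 and Tekt2) were not. Quantile normalization gave 1 member higher, where 12.4% of all genes were, and 1 lower, where 12.3% were, and library quality weights gave 0 higher, where 1.96% were. Hair cell markers had 7 of 16 called higher here and a summed level of 2272 to 3087 in old macrophages and of 1436 to 1597 in young ones. Other marker lists were called as well: 5 of 9 supporting cell markers were higher (summed level 16323 to 25516 in old and 7537 to 18752 in young macrophages), and 4 of 6 Schwann cell and glia markers (116796 to 352866 and 69467 to 80006). So were 5 of 11 choroid plexus markers (5597 to 11060 and 8404 to 9401) and 2 of 10 neuron markers (294102 to 476903 and 150121 to 271019). Macrophage markers summed to 132980 to 223134 in old and 476487 to 658649 in young macrophages, with 0 of 8 called in either direction by limma and 2 lower at an unadjusted p under 0.05. The part of these lists in the result was not tested. Without young macrophage replicate 9, 5 members were called higher, where 18.7% of all genes were.

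In old mice, part of the axoneme genes were lower in the GFP-positive than in the GFP-negative cells. In old macrophages against old nonmacrophages 9 of 35 members were called lower, where 9.36% of all genes were, and 0 higher, where 9.25% were, with a median log2 difference of -2.21, beside -0.19 for all genes. All 9 had also been called higher in old than in young nonmacrophages, a comparison with the same old nonmacrophage libraries. Ttc29 had 11.6, 0, 8.76 and 22.6 normalized reads in old macrophages, all below its lowest old nonmacrophage library (log2 difference -4.19 ± 0.87 SE, adjusted p = 0.0047). Dnah5 had 1.28, 0, 1.84 and 4.88 (log2 difference -4.25 ± 0.65 SE, adjusted p = 0.00062). Dnah1 had 0, 0.544, 0.921 and 0 (log2 difference -4.27 ± 0.68 SE, adjusted p = 0.00079). Tekt1 had 30.8, 2.18, 20.7 and 58.5 (log2 difference -3.37 ± 0.92 SE, adjusted p = 0.022). These 4 genes did not overlap between the sorts. Hydin, at 43.6, 50.6, 13.8 and 12.8 in old macrophages, overlapped its range in the GFP-negative cells (log2 difference 0.42 ± 0.71 SE, adjusted p = 0.77). Every old nonmacrophage library lay above every old macrophage library for 16 of 35 members, against 30.0% of all genes. A fit of only these groups called 25 lower, where 33.4% of all genes were, edgeR called 2 of 32, where 7.42% were, and DESeq2 called 6 of 35, where 13.4% were. Without old macrophage replicate 7, or without old nonmacrophage replicate 11 or 18, 5 were called, where 6.65%, 6.23% and 6.22% of all genes were. Of marker lists, 5 of 16 hair cell, 3 of 9 supporting cell, 5 of 6 Schwann cell and glia, 3 of 11 choroid plexus and 4 of 8 airway-type mucosa markers were called lower, and their part in the result was not tested.

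In young mice the sorts could hardly be compared, since most members were near 0 in both. In young macrophages against young nonmacrophages 3 of 35 were called lower, where 22.3% of all genes were, and 0 higher, where 9.18% were. Foxj1 (log2 difference -3.61 ± 0.96 SE, adjusted p = 0.012), Ccdc39 (log2 difference -4.72 ± 1.50 SE, adjusted p = 0.03) and Dnali1 (log2 difference -4.04 ± 1.45 SE, adjusted p = 0.05) had no reads in either young macrophage library. Quantile normalization gave 0 lower, where 15.2% of all genes were, and 3 higher, where 12.8% were. DESeq2 called 11 of 32 lower, where 27.5% of all genes were. A sort difference that differed between ages was called for 1 member, Dnah5 (interaction log2 difference -3.75 ± 1.03 SE, adjusted p = 0.041), where 0.954% of all genes were called in that direction, and 0 members were called in the other, where 6.98% of all genes were. That call was lost under quantile normalization, library quality weights, a filter of at least 10 in 2 libraries, a pseudocount of 0.1, edgeR and DESeq2, and in 9 of 14 leave-one-out fits. In young mice Dnah5 had no more than 1 read in any sorted library of whole cochlea.

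The single young libraries placed axoneme genes in unsorted cochlea and in the GFP-negative auditory nerve. These are 1 library each, so they were not tested, and 95% exact Poisson intervals cover counting error only. The unsorted library lay above all 4 young nonmacrophage libraries for 29 of 35 members, against 26.9% of all genes. Tekt1 had 233.9 normalized reads there (interval 198 to 274), 167.8 in auditory nerve nonmacrophages (139 to 201) and 12.2 in lateral wall nonmacrophages (5.28 to 24.1). Drc1 had 215.6 (181 to 254), 127.3 (103 to 156) and 32.1 (19.9 to 49.1) in these libraries. Foxj1 had 185 (154 to 221), 16.8 (8.67 to 29.3) and 1.53 (0.0387 to 8.52), so its auditory nerve interval lay far below its unsorted one. Ccdc40 had 373.1 (328 to 423), 43.4 (29.5 to 61.6) and 29.1 (17.5 to 45.4). Auditory nerve exceeded lateral wall nonmacrophages by over 2-fold on normalized reads + 1 for 20 of 35 members, against 18.7% of all genes, but 3 of these (Dnah10, Rsph4a and Mcidas) had 3 reads or fewer in the nerve, which leaves 17. Dnah1 went the other way, with no reads in the auditory nerve and 27.5 in the lateral wall. So did Cfap44 (2.80 and 24.5) and Dnah6 (18.2 and 39.8), and Dnah7a on few reads. Spag16 had 85.9 in auditory nerve macrophages and Zmynd10 75.0 in lateral wall macrophages, where most members were without reads. Otof had 1864 in the unsorted library, 310.5 in auditory nerve and 91.8 in lateral wall nonmacrophages, and of 16 hair cell markers 11 exceeded all young nonmacrophage libraries in the unsorted library. The part of these markers in the levels was not tested.

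The 10 non-members most like the members, by Pearson's r with the members' mean log2 level over the 19 libraries among 15919 genes with a mean of at least 10, were Lhx3 (0.958), Otof (0.954), Iqub (0.954), Chrna9 (0.951), Ppp1r32 (0.949), Cfap206 (0.945), Cyp2g1 (0.943), Pou4f3 (0.939), Strc (0.938) and Cdcp2 (0.936). Otof, Chrna9 and Pou4f3 are on the hair cell list, and Iqub and Cfap206 on the axoneme list. Lhx3, a homeobox transcription factor, had 117, 341, 198 and 128 normalized reads in old and 0, 0, 0 and 7.49 in young nonmacrophages and 246 in the unsorted library. Strc, which encodes stereocilin of the hair bundle, had 154, 322, 178 and 79.6 in old and 0, 0, 0 and 8.02 in young nonmacrophages and 231 in the unsorted library. The libraries share their differences in depth, age and sort, and no p is given.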

How the data were processed

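RNA from GFP-sorted cells of 19 samples was sequenced (SMARTer Ultra, Nextera XT), with poor RNA left out and some libraries sequenced again, per the labels' protocols. The submitters' processing notes name mm10, TopHat2, Partek and DESeq2. The authors deposited a signal value per gene and library, in which read counts are scaled per library, per the file headers. Whole reads were recovered, with 100.00% of values under 10000 reads whole within 0.1 read, and used only for edgeR (4.0.16), DESeq2 (1.42.0), intervals and floors. The authors' own p-value, adjusted p-value and fold columns in the deposited table were not used.

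limma 3.58.1 (R 4.3.3, trend, robust) used 4 group means over 14 libraries (sorted, whole cochlea), after adding 1 and taking log2. Genes that reached 1 in fewer than 2 libraries were dropped. The scale understates the change of low genes. Each isolate was 1 mouse, and whether 2 sorts share a mouse is not given in the sources used here. Members and lists were chosen with earlier results of these data known. Positions and exon lengths came from GENCODE M21 (mm10). The fit was tested on simulated data. All 35 members may be named by the rule. Values are given for Foxj1, Mcidas, the 3 most abundant per kilobase of each role and members called in 2 or more of 5 comparisons. The genes most like them were ranked by r. Other non-members with values were chosen after these were seen, beside the most abundant of some lists and 3 regulators.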

Additional observations from a re-analysis of the deposited data

Results flagged for a closer look

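Sets of 4 libraries were examined only for the members given values by the rule above, not for others such as Spag16 and Spag17. In 18 of 81 sets, 1 library stood apart from the other 3 beyond Dixon's 95% limit, which chance gives in about 1 set in 20. In 10 of the 18 (Dnah1, Dnah9, Dnah11, Ccdc40, Hydin, Drc1, Tekt1, Armc4, Zmynd10 and Lrrc6) the other 3 libraries were at 0, so any reads pass that limit and the chance rate does not apply. Young nonmacrophage replicate 14, the deepest of its group, was the high one for Dnah1 (5.88 normalized reads), Dnah2 (40.6), Dnah9 (3.74), Dnah11 (8.56), Ccdc40 (32.1), Ccdc114 (61.5), Hydin (1.60), Drc1 (25.1), Zmynd10 (23.0) and Lrrc6 (12.8). Young nonmacrophage replicate 6 was the high one for Dnah6 (148 normalized reads), Dnali1 (202), Cfap52 (196), Cfap126 (189), Tekt1 (4.89) and Armc4 (132). Among old macrophages, replicate 17 was high for Ccdc114 (87.8 normalized reads) and replicate 1 for Foxj1 (94.9).

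For Dnah5 the sort difference differed between ages (log2 difference of differences -3.75, limma adjusted p = 0.041, and 0.02 to 1 over the other settings). The call was lost in 9 of 14 leave-one-out fits and under 6 of 8 other settings, and no young sorted library of whole cochlea had more than 1 read.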

How the results depend on the processing

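Percentages are the share of all genes called in that direction under that setting. Of the calls of single members, 0 changed sign under any setting, leave-one-out fits included. The interaction of the members as a set did change direction with the tool. By limma 11 of 35 members were above 0 (median log2 difference -0.63). By edgeR 25 of 32 were (median 3.03) and by DESeq2 24 of 35 (median 1.20). In old against young nonmacrophages, where limma called 14 members higher, the count was 6 under quantile normalization (0.412%) and 6 with library quality weights (0.889%). It was 8 with only the groups compared (0.943%), 0 by edgeR (0.0175%) and 9 to 23 in the leave-one-out fits (0.879% to 12.3%). In old against young macrophages (13 higher, 0 lower), it was 1 higher and 1 lower under quantile normalization (12.4% and 12.3%). It was 0 with quality weights (1.96%) and 6 with a pseudocount of 10 (20.7%). In leave-one-out fits it was 5 to 12 higher (18.7% to 35.2%) and 0 to 1 lower (4.04% to 10.9%). In old macrophages against old nonmacrophages (9 lower), it was 26 with quality weights (34.8%), and 4 and 17 with pseudocounts of 0.1 and 10 (8.04% and 11.1%). It was 25 with only the groups compared (33.4%), 2 by edgeR (7.42%), and 5 to 10 in leave-one-out fits (6.20% to 7.27%). In young macrophages against young nonmacrophages (3 lower), it was 3 higher and 0 lower under quantile normalization (12.8% and 15.2%). It was 0 lower with quality weights (2.94%), and 5 and 0 with pseudocounts of 0.1 and 10 (23.3% and 20.3%). It was 0 of 16 with only the groups compared (6.60%), 5 by edgeR (20.1%) and 11 by DESeq2 (27.5%). Leave-one-out fits gave 1 to 5 lower (17.7% to 30.0%). For the interaction (1 lower), it was 4 lower under quantile normalization and with a pseudocount of 10 (1.21% and 1.11%). It was 0 in either direction with quality weights (0.803% higher, 0.00% lower). With a filter of at least 10 in 2 libraries it was also 0 (7.85% higher, 1.08% lower). A pseudocount of 0.1 gave 1 higher and 0 lower (7.35% and 0.998%), and so did edgeR (8.96% and 0.695%). DESeq2 gave 3 higher and 1 lower (14.4% and 3.20%). Leave-one-out fits gave 0 to 2 in either direction (5.43% to 24.5% higher, 0.648% to 4.64% lower). The cause was not tested.

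Only 2 young macrophage libraries entered, depth and age nearly coincide, and a count of 0 in young nonmacrophages allows up to 1.60 to 5.33 normalized reads. No paired analysis was run. Each replicate number belongs to a single library, so the numbers do not tell which libraries share a mouse.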
